A study of Mus musculus with 9 samples.

Results

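Scavenger and lipoprotein receptors are cell surface proteins that could take up a liposomal drug, and 9 of their genes were followed here: *Msr1*, *Marco*, *Cd36*, *Scarb1*, *Vldlr*, *Lrp1*, *Stab1*, *Cd163* and *Colec12*. They were chosen by name, as candidate uptake receptors, with earlier results of these data known. Each was matched by its Ensembl identifier among the 35275 genes listed for the tumors. All 9 were found, and all 9 had enough reads to be tested along with 15821 genes in total. Counts per gene came from RNAseq of mammary gland tumors of Brca1Co/Co;MMTV-Cre;p53+/- mice, with 3 tumors each after saline, after free Talazoparib given into a vein (i.v. TLZ) and after Talazoparib carried in liposomes (NanoTLZ). Treated mice received 0.33 mg/kg of Talazoparib per dose, and every group received 5 doses at 3 per week, starting once a tumor was 4 to 5 mm across. All mice, the saline group included, carried the same genotype, in which Cre recombinase driven by the MMTV promoter acts on a floxed *Brca1* in mammary epithelium while 1 *p53* allele is missing throughout the mouse. The tumors were spontaneous and were sequenced whole, so stroma and immune cells entered the RNA, and the control was saline rather than an empty liposome. The free drug and the liposome therefore share the compound and the dose but not the carrier.

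Many receptors of this kind bind particles or lipoproteins at the cell surface, are drawn in by clathrin-coated pits or by phagocytosis, and deliver their cargo to endosomes and lysosomes. Class A scavenger receptors (*Msr1*, *Marco*, *Colec12*) bind negatively charged ligands such as modified lipoproteins and bacteria, class B receptors (*Cd36*, *Scarb1*) exchange lipids with lipoproteins, and the LDL receptor family (*Lrp1*, *Vldlr*) takes up lipoproteins that carry apolipoprotein E. *Stab1* and *Cd163* are large receptors of macrophages, and *Stab1* is also made by sinusoidal endothelium. Liposomes injected into blood are known to be cleared largely by macrophages and by liver endothelium.

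Depth ranged from 17538380 to 21194980 counts per tumor, with a median of 19747343. Levels in a tumor are given as CPM (counts scaled to a common library size) with library sizes corrected by TMM. Saline tumor 3 stood apart: its mean Spearman correlation of log2 CPM with the other 8 tumors was 0.867, against 0.916 to 0.947 for the rest, and its skeletal muscle markers summed to 798 CPM. The 10 epithelial markers summed to at least 4197 CPM in every tumor, so each held epithelial RNA, though these genes are not particular to the mammary gland. Single markers varied: *Krt5* was at 1849 CPM in saline tumor 3 and at or under 72.9 CPM elsewhere. *Krt19* was at 31.2 CPM in saline tumor 3 and at or above 173 CPM elsewhere. After NanoTLZ 9 of the 10 epithelial markers had lower counts than in saline (median log2 fold change -0.38, against -0.09 over all tested genes). Of the 10, 0 lay apart from saline without overlap. Against i.v. TLZ 9 of 10 were lower (median -0.63, against -0.04). Of these, 4 were lower without overlap, where 4.41% of tested genes were. None was called by edgeR or by DESeq2. At an unadjusted edgeR p under 0.05, 2 and 1 were lower (8.99% and 1.68% of all tested genes in either direction). The 3 tumors of a group have separate labels, but no source states how the tumors were matched or batched, so p-values measure the spread between these tumors. In whole tumors, fewer cells of a type and less RNA per cell cannot be told apart.

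Levels of different genes were compared per kilobase (kb) of exon, because a longer transcript collects more reads. In saline tumors the HDL receptor *Scarb1* was highest, with a mean of 15.02 CPM per kb, followed by *Stab1* with 10.9 and *Lrp1* with 8.29. *Vldlr* (6.04), *Msr1* (4.37) and *Cd163* (3.97) came next, then *Colec12* (1.59), *Cd36* (1.28) and *Marco* (0.278), all in CPM per kb. Neighbours in this order overlapped between tumors except at *Lrp1* over *Vldlr*, at *Cd163* over *Colec12* and at *Cd36* over *Marco*. After i.v. TLZ the order began with *Lrp1* (mean 18.0 CPM per kb) and *Stab1* (17.1), whose tumors overlapped, with *Scarb1* next at 10.8. Of the neighbouring pairs in that group, only *Cd163* (2.37 CPM per kb) over *Cd36* (0.965 CPM per kb) were apart in every tumor. After NanoTLZ *Stab1* led with a mean of 22.4 CPM per kb, above *Lrp1* with 16.8 and *Scarb1* with 9.75, and in this group these 3 genes did not overlap with each other. *Msr1* followed with 5.998 CPM per kb, above *Vldlr* with 4.84 and *Colec12* with 3.20, again without overlap. The NanoTLZ tumors overlapped only for *Colec12* with *Cd36* (2.42 CPM per kb) and for *Cd36* with *Cd163* (1.89 CPM per kb), and *Marco* was last in all 3 groups.

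**Figure D1:**
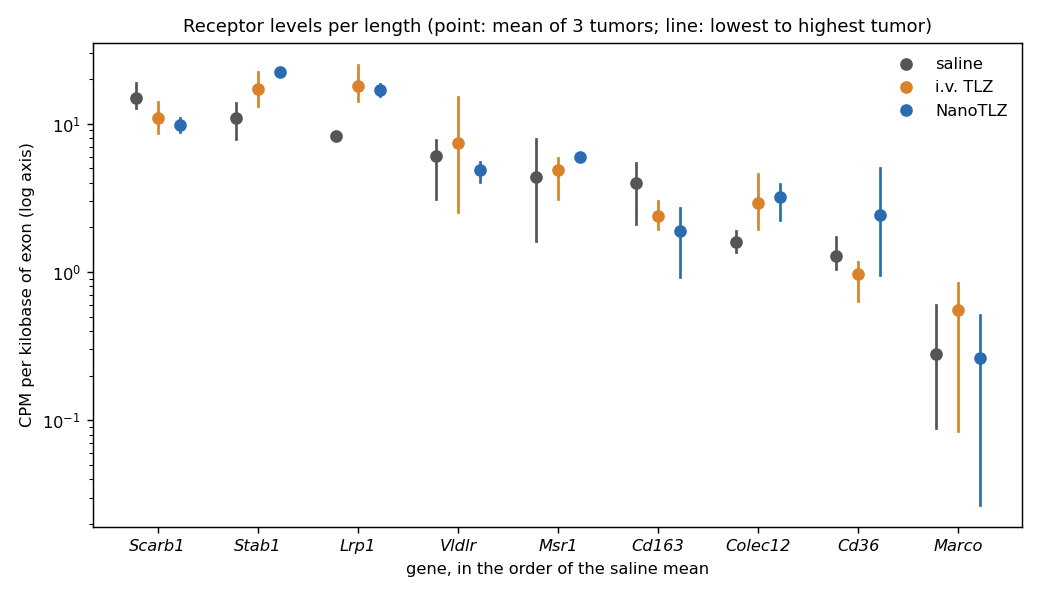
Level of each receptor gene in CPM per kb of exon on a log axis, with a point for the mean of 3 tumors and a line from the lowest to the highest tumor, for saline, i.v. TLZ and NanoTLZ. *Scarb1* led the order in saline (15.02 CPM per kb), *Lrp1* in i.v. TLZ (18.0) and *Stab1* in NanoTLZ (22.4), while *Marco* was lowest in each group.

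The groups were compared with edgeR's quasi-likelihood test in 1 fit of all 9 tumors, with Benjamini-Hochberg adjustment over all 15821 tested genes, and a gene was called at an adjusted p under 0.05. None of the 9 receptor genes was called between i.v. TLZ and saline, where 0% of tested genes were called. The count was also 0 between NanoTLZ and saline (0.00632% of tested genes called), between NanoTLZ and i.v. TLZ (0%), and between the mean of both treated groups and saline (0.019%). At an unadjusted p under 0.05, 1 of the 9 differed between i.v. TLZ and saline against 10.4% of all tested genes, 5 between NanoTLZ and saline against 8.99%, 0 between NanoTLZ and i.v. TLZ against 1.68%, and 5 between both treatments and saline against 13.1%. The 5 were the same genes in the last comparison and in NanoTLZ against saline: *Lrp1*, *Stab1* and *Colec12* with higher and *Scarb1* and *Cd163* with lower counts. These comparisons share the saline tumors. The receptor genes were chosen with earlier results of these data known, so these shares are a description and not a test of the set. In a DESeq2 fit of all 9 tumors 1 receptor gene, *Lrp1*, was called for both treatments against saline (1.53% of its tested genes called) and 0 in the other 3 comparisons (1.12%, 0.712% and 0.0119% called). Limma-voom called 0 of the 9 (0%, 0.00632%, 0% and 0.00632% of tested genes called, in the order above), and so did DESeq2 on only the groups compared (0.534%, 1.05% and 0.127% called).

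*Lrp1* (ENSMUSG00000040249, chromosome 10, 127538161 to 127621148, minus strand, GRCm38) encodes a very large endocytic receptor for apolipoprotein E, protease complexes and many other ligands. In the saline group it stood at 145, 151 and 144 CPM in tumors 1, 2 and 3. After i.v. TLZ the values were 443, 264 and 252 CPM, and after NanoTLZ they were 274, 327 and 291 CPM. The saline tumors lay close together, saline tumor 3 included, and every treated tumor was above all of them. Means were 147 ± 3.90 CPM in saline, 320 ± 107 CPM after i.v. TLZ and 297 ± 26.99 CPM after NanoTLZ (SD, n = 3 each). The log2 fold change was 1.12 ± 0.29 (SE) for i.v. TLZ against saline, with a 95% interval of 0.48 to 1.76, an unadjusted edgeR p of 0.0029 and an edgeR adjusted p of 0.417. For NanoTLZ against saline it was 1.02 ± 0.29, with an interval of 0.38 to 1.66 and an edgeR adjusted p of 0.552. With both treatments together the difference was 1.07 ± 0.26 on the log2 scale, with an edgeR adjusted p of 0.271 and a DESeq2 adjusted p of 0.0196. Leaving out saline tumor 3 gave 1.08 and an edgeR adjusted p of 0.374. The 2 formulations differed by -0.10 (NanoTLZ minus i.v. TLZ, log2), with an interval of -0.74 to 0.53. Counts of the opposite-strand gene *Gm16217* inside *Lrp1* came to 4 over all tumors.

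*Stab1* (ENSMUSG00000042286, chromosome 14, 31139013 to 31168641, minus strand) encodes stabilin-1, a scavenger receptor of macrophages and sinusoidal endothelium. Its level was 112, 142 and 81.3 CPM in the saline tumors. It was 231, 136 and 159 CPM after i.v. TLZ, and 238, 231 and 221 CPM after NanoTLZ. The NanoTLZ tumors were close to each other and all above saline, whereas i.v. TLZ tumor 2 fell among the saline tumors. Against saline, the log2 fold change was 1.04 ± 0.30 (SE) for NanoTLZ, with a 95% interval of 0.37 to 1.71 and an edgeR adjusted p of 0.552. Without saline tumor 3 it was 0.88, with an edgeR adjusted p of 0.681. For i.v. TLZ the log2 fold change against saline was 0.65 ± 0.30, with an interval of -0.01 to 1.31. NanoTLZ minus i.v. TLZ was 0.39 ± 0.30 on the log2 scale (interval -0.27 to 1.05). Exons of *Stab1* and of *Nt5dc2* on the opposite strand share 112 bases, and *Nt5dc2* had 4479 counts over all tumors. How reads there were assigned is not given in the sources used here.

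*Colec12* (ENSMUSG00000036103, chromosome 18, 9707595 to 9882644, plus strand) encodes a class A scavenger receptor with a C-type lectin domain, made largely by endothelium and stroma. Saline tumors had 11.9, 16.4 and 13.2 CPM. The i.v. TLZ tumors had 40.1, 17.1 and 18.9 CPM, and the NanoTLZ tumors had 30.5, 33.9 and 19.4 CPM. The highest saline tumor was below the lowest treated tumor, although i.v. TLZ tumor 2 exceeded saline tumor 2 only by the gap between 16.4 and 17.1 CPM. Log2 fold changes against saline were 0.88 ± 0.40 (SE) for i.v. TLZ (95% interval -0.0038 to 1.76, edgeR adjusted p = 0.482) and 1.01 ± 0.40 for NanoTLZ (interval 0.13 to 1.90, edgeR adjusted p = 0.552). Without saline tumor 3 these were 0.85 and 1.01. Between the formulations the log2 difference was 0.14, with an interval of -0.73 to 1.01.

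Counted by overlap alone, 2 of the 9 genes (*Lrp1* and *Colec12*) had every i.v. TLZ tumor above every saline tumor, where 5.99% of tested genes were higher and 5.2% lower in this way. In NanoTLZ against saline, 3 genes (*Lrp1*, *Stab1* and *Colec12*) were higher and 1 (*Scarb1*) was lower without overlap, where 7.82% of tested genes were higher and 8.13% lower. *Lrp1* and *Colec12* were the genes in which the 6 treated tumors had no overlap with saline and lay higher (2.81% of tested genes, with 2.66% lower). Without i.v. TLZ tumor 2, the count for i.v. TLZ against saline was 5 rather than 2, while the share of all tested genes apart in either direction went from 11.2% to 21.8%.

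**Figure D2:**
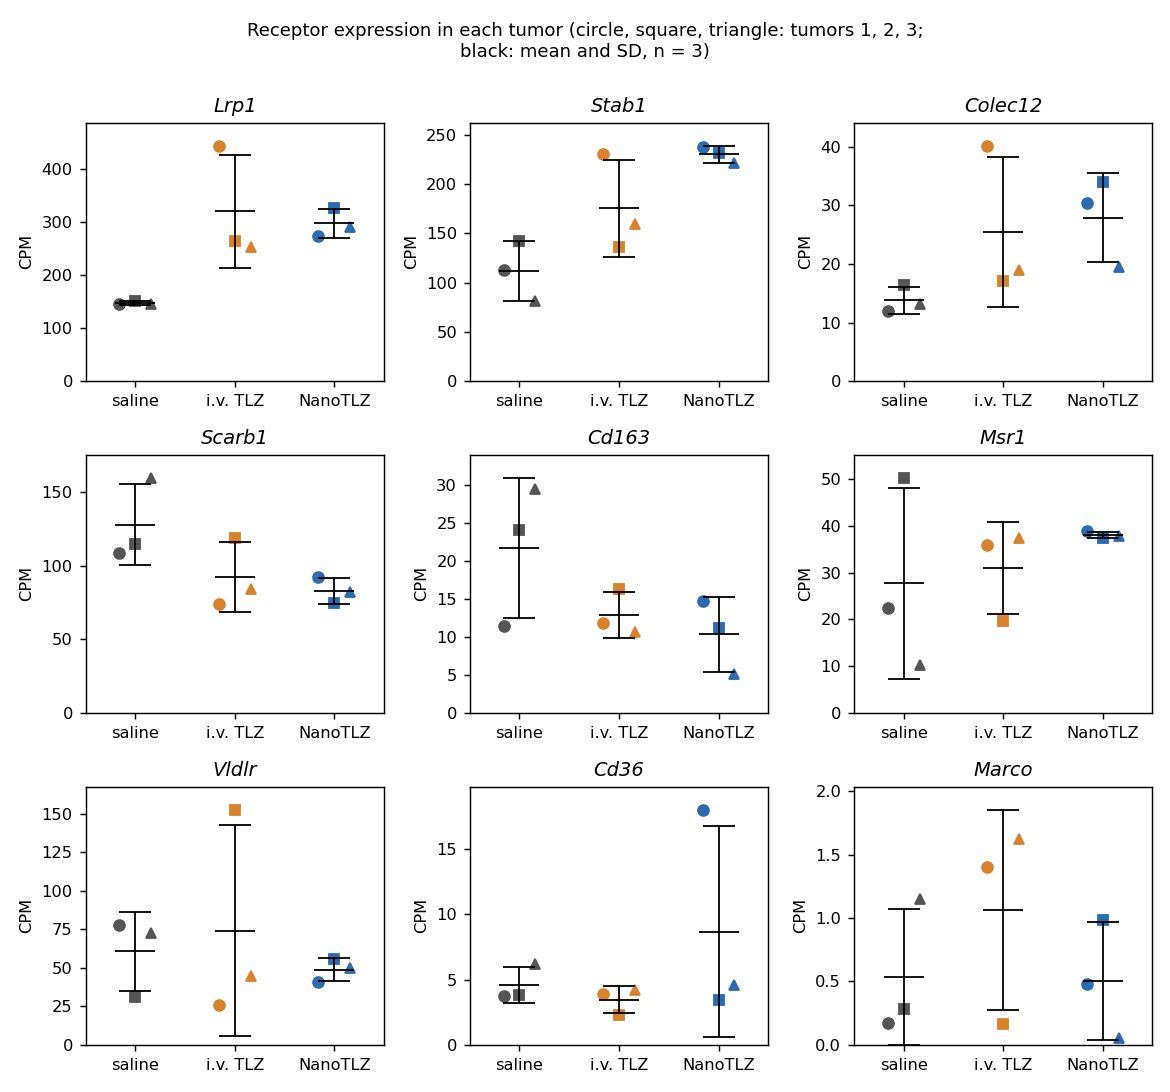
CPM of each receptor gene in each of the 9 tumors (circle, square and triangle for tumors 1, 2 and 3 of a group), and each group mean ± SD in black (n = 3). In *Lrp1* the saline tumors sit between 144 and 151 CPM and the treated tumors at or above 252 CPM, while a single tumor is high in *Cd36* (NanoTLZ tumor 1, 18.0 CPM) and in *Vldlr* (i.v. TLZ tumor 2, 152 CPM).

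*Scarb1* (ENSMUSG00000037936, chromosome 5, 125277087 to 125341094, minus strand) encodes SR-BI, which takes cholesterol esters from HDL. The saline tumors had 109, 115 and 159 CPM. After i.v. TLZ the values were 73.9, 119 and 83.8 CPM, and after NanoTLZ they were 92.2, 74.3 and 82.0 CPM. The NanoTLZ tumors were all below saline, and i.v. TLZ tumor 2 was again within the saline range. For NanoTLZ against saline the log2 fold change was -0.62 ± 0.27 (SE), with a 95% interval of -1.23 to -0.01 and an edgeR adjusted p of 0.553. It was -0.47 ± 0.27 for i.v. TLZ against saline (interval -1.08 to 0.14). Saline tumor 3 was the highest of the 9 tumors, and without it the NanoTLZ value was -0.40 with an edgeR adjusted p of 0.788.

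*Cd163* (ENSMUSG00000008845, chromosome 6, 124304656 to 124330527, plus strand) encodes the receptor with which macrophages take up haptoglobin-hemoglobin complexes. Its level in saline tumors was 11.5, 24.0 and 29.5 CPM. It was 11.8, 16.3 and 10.6 CPM after i.v. TLZ and 14.8, 11.1 and 5.07 CPM after NanoTLZ. Saline tumors 2 and 3 were above all treated tumors, and saline tumor 1 lay within the treated range. The log2 fold change against saline was -1.07 ± 0.48 (SE) for NanoTLZ (95% interval -2.13 to -0.0039, edgeR adjusted p = 0.555), and it was -0.76 without saline tumor 3. For i.v. TLZ it was -0.75 ± 0.48 (interval -1.80 to 0.31). Thus 2 macrophage receptors, *Stab1* and *Cd163*, had fold changes of opposite sign after NanoTLZ.

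*Msr1* (ENSMUSG00000025044, chromosome 8, 39581685 to 39642673, minus strand) encodes the macrophage scavenger receptor for modified LDL. The saline tumors spread from 10.3 to 50.2 CPM, with tumor 1 at 22.5 CPM. The i.v. TLZ tumors had 36.0, 19.7 and 37.4 CPM, and the NanoTLZ tumors had 38.9, 37.5 and 37.8 CPM. Every NanoTLZ tumor lay within the saline range. *Msr1* was the 1 gene of the 9 with all NanoTLZ tumors above all i.v. TLZ tumors, where 3.2% of tested genes were higher and 4.41% lower, and the gap was that between 37.4 and 37.5 CPM. The log2 difference between the formulations was 0.29 ± 0.50 (SE), with a 95% interval of -0.81 to 1.40. Against saline it was 0.46 ± 0.50 for NanoTLZ and 0.16 ± 0.50 for i.v. TLZ, and these were 0.089 and -0.23 without saline tumor 3.

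*Marco* (ENSMUSG00000026390, chromosome 1, 120474538 to 120505024, minus strand) encodes the other macrophage class A receptor, and it was near the limit of this depth. Its counts were 3, 6 and 25 in saline, 29, 3 and 30 after i.v. TLZ, and 10, 18 and 1 after NanoTLZ. Of the 9 tumors, 3 were at or under a floor of 3 counts, which covers counting error only. No difference was detectable: the 95% interval of the log2 fold change ran from -1.39 to 3.34 for i.v. TLZ and from -2.50 to 2.30 for NanoTLZ against saline.

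*Cd36* (ENSMUSG00000002944, chromosome 5, 17781690 to 17888801, minus strand) encodes a fatty acid transporter and receptor for oxidized LDL, found on adipocytes, capillaries and macrophages. Saline tumors had 3.78, 3.81 and 6.19 CPM, and i.v. TLZ tumors had 3.88, 2.30 and 4.22 CPM. The NanoTLZ tumors had 18.0, 3.44 and 4.605 CPM. Only NanoTLZ tumor 1 stood above the range of the other 8 tumors. The log2 fold change of NanoTLZ against saline was 0.92 ± 0.64 (SE), with a 95% interval of -0.50 to 2.34, and it was -0.19 without that tumor. NanoTLZ minus i.v. TLZ was 1.32 ± 0.64 on the log2 scale (interval -0.11 to 2.76, edgeR adjusted p = 0.9999), and 0.22 without NanoTLZ tumor 1.

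*Vldlr* (ENSMUSG00000024924, chromosome 19, 27216484 to 27254231, plus strand) encodes a receptor of the LDL receptor family that binds triglyceride-rich lipoproteins with apolipoprotein E, as well as reelin. Its saline values were 78.1, 31.4 and 72.9 CPM. The i.v. TLZ tumors had 25.7, 152 and 44.4 CPM, and the NanoTLZ tumors had 40.8, 55.7 and 49.8 CPM. The highest and the lowest of the 9 tumors were both in the i.v. TLZ group. The log2 fold change against saline was 0.29 ± 0.59 (SE) for i.v. TLZ (95% interval -1.03 to 1.60) and -0.80 without i.v. TLZ tumor 2. For NanoTLZ against saline it was -0.32 ± 0.59 (interval -1.64 to 0.999).

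**Figure D3:**
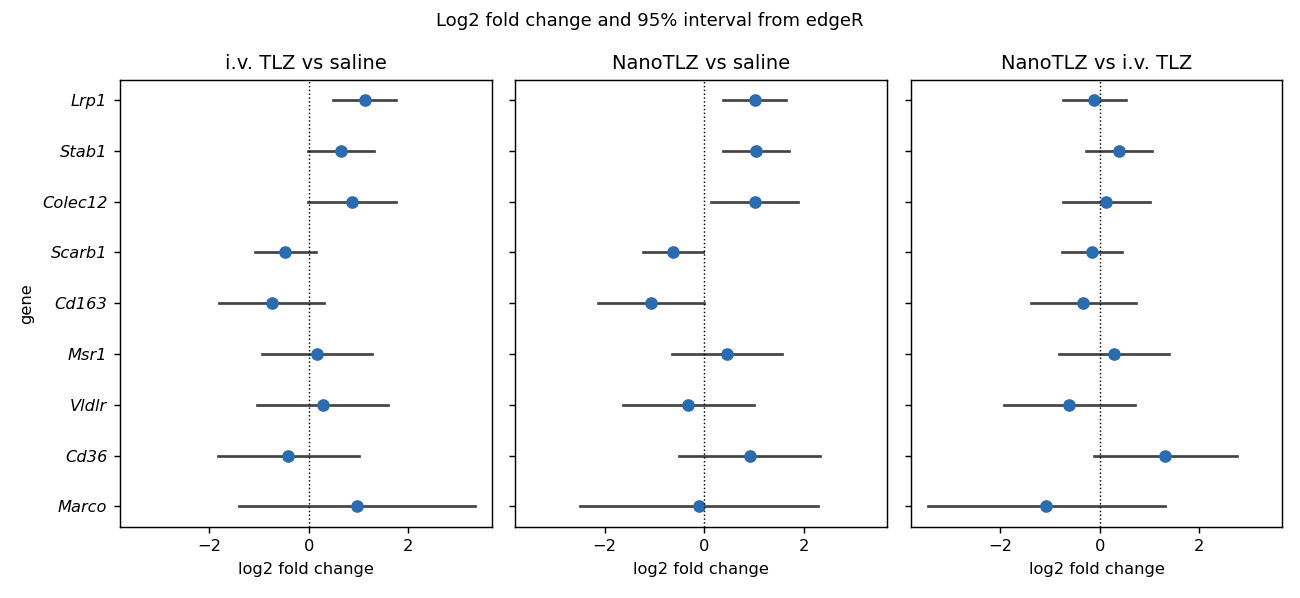
Log2 fold change of each receptor gene with its 95% interval from edgeR, for i.v. TLZ against saline, NanoTLZ against saline and NanoTLZ against i.v. TLZ. Intervals clear of 0 are those of *Lrp1* in both comparisons with saline and of *Stab1*, *Colec12*, *Scarb1* and *Cd163* for NanoTLZ against saline (unadjusted), and all intervals between the 2 formulations include 0.

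The bases before the start site are shown for 3 of these genes, *Lrp1* and *Stab1* with higher and *Cd163* with lower counts after NanoTLZ. EdgeR called none of these differences (adjusted p 0.552, 0.552 and 0.555), and *Cd163* overlapped between the groups. Whether the promoters bear on the counts was not tested. They are the 250 bases upstream of the RefSeq start on GRCm38.p6, 5′ to 3′ on the gene's strand, at chr10:127621149-127621398 (minus) for *Lrp1*, chr14:31168642-31168891 (minus) for *Stab1* and chr6:124304401-124304650 (plus) for *Cd163*. Capitals mark matches to 4 motifs, searched on both strands. The GC box was searched as GGGCGG and the core of PU.1 sites as GAGGAA. The E-box was searched as CACGTG and the TATA box as TATAAA.
Lrp1: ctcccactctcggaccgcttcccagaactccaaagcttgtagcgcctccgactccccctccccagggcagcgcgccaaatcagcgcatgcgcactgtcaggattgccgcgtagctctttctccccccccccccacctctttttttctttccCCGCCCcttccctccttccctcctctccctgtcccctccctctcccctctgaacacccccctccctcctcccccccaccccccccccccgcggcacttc
Stab1: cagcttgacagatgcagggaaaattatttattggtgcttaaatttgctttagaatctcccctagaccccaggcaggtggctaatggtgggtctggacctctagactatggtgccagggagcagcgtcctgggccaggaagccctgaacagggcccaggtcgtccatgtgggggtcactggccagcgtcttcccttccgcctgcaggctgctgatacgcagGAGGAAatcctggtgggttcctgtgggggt
Cd163: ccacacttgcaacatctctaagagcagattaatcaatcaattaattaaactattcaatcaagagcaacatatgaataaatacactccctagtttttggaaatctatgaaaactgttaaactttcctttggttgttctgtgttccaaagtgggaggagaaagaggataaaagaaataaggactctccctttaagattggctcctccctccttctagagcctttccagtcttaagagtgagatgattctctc
The *Lrp1* promoter was rich in G and C (67.2%, against a median of 52.4% over all promoters) with 13 CpG, and held 1 GC box, written as CCGCCC on this strand. The *Stab1* promoter had 57.2% G and C, 5 CpG and 1 match to the PU.1 core. That of *Cd163* had 36.8% G and C, 0 CpG and no match to the 4 motifs. Of all 32851 promoters of this length, 32.7% held the GC box, 23.3% the PU.1 core, 6.02% the E-box and 12.4% the TATA box, so neither match is rare. A match of letters is a description and not a bound site. RefSeq promoters were found for 6 of the 9 genes.

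Markers of the cell types that could carry these receptors were summed in each tumor. The 12 macrophage markers, such as *Csf1r* and *C1qa*, summed to 1134, 3978 and 979 CPM in saline, to 3871, 2107 and 3895 CPM after i.v. TLZ, and to 5586, 5975 and 5468 CPM after NanoTLZ. All 12 had higher counts after NanoTLZ than in saline, with a median log2 fold change of 1.03 against -0.09 over all tested genes. EdgeR called 0 of them (1 at an unadjusted p under 0.05), and DESeq2 on all 9 tumors called 0. *Lyz2* alone gave 3262, 3642 and 2260 CPM of the NanoTLZ sums, and 192, 1573 and 406 CPM in saline. It was the 1 marker of the 12 with all NanoTLZ tumors above all saline tumors, where 7.82% of tested genes were higher. Against i.v. TLZ 8 of the 12 were higher without overlap, where 3.2% of tested genes were. The 3 tumors with the least of these markers, saline tumors 1 and 3 and i.v. TLZ tumor 2, were also the 3 with the least *Msr1*. *Stab1* was highest in the 3 NanoTLZ tumors and i.v. TLZ tumor 1, and lowest in saline tumor 3. *Cd163* did not follow this order, being highest in saline tumor 3, in which the macrophage sum was the lowest. The 7 markers of resident macrophages summed to between 44.9 and 131 CPM in saline, 30.9 and 127 CPM after i.v. TLZ, and 71.9 and 158 CPM after NanoTLZ. Their sum was highest in NanoTLZ tumor 3, which had the least *Cd163*, and next highest in saline tumor 3, which had the most. Within the list, *Lyve1*, *Folr2*, *Timd4*, *Cbr2* and *Vsig4* were highest in saline tumor 3, *F13a1* in NanoTLZ tumor 3 and *Mrc1* in NanoTLZ tumor 2. The part of these markers in the receptor results was not tested.

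The 10 endothelial markers summed to between 102 and 241 CPM in saline, 132 and 281 CPM after i.v. TLZ, and 238 and 320 CPM after NanoTLZ. For the 10 fibroblast markers the sums ran from 1513 to 2102 CPM in saline, from 1028 to 6155 CPM after i.v. TLZ and from 1758 to 3184 CPM after NanoTLZ. The tumor with the highest fibroblast sum, i.v. TLZ tumor 1 at 6155 CPM, was the one with the most *Lrp1* and *Colec12*. The tumor with the lowest fibroblast sum, i.v. TLZ tumor 2 at 1028 CPM, had 264 CPM of *Lrp1*. Collagens *Col1a1*, *Col1a2* and *Col3a1* made up most of both sums. Within the list, *Pdgfra* and *Dcn* were highest in NanoTLZ tumor 2 and *Fap* in NanoTLZ tumor 1, and the other markers in i.v. TLZ tumor 1. The 10 adipocyte markers summed to 93.5 CPM in NanoTLZ tumor 1 and to between 19.3 and 37.3 CPM in the other tumors, and NanoTLZ tumor 1 was also the tumor with the high *Cd36*. *Adipoq* was at 2.84 CPM there and at or under 0.642 CPM elsewhere. Of the 10 adipocyte markers, 6 had too few counts to be tested. *Fabp4* gave 36.5 CPM of the sum in NanoTLZ tumor 1, and it was at 28.3 CPM in saline tumor 3. *Lipe* went the other way, with 13.7 CPM in NanoTLZ tumor 1 and 24.3 CPM in i.v. TLZ tumor 2. The other markers of the list were highest in NanoTLZ tumor 1. Skeletal muscle markers summed to between 35.5 and 798 CPM in saline and to between 4.87 and 32.7 CPM in the treated tumors. Of the 9 tested markers, 8 were lower without overlap in each comparison with saline. Over all tested genes the shares lower in this way were 5.2% for i.v. TLZ, 8.13% for NanoTLZ and 2.66% for both. EdgeR called *Myh4*, a myosin of fast muscle fibers, lower in the treated groups together (log2 fold change -9.65, edgeR adjusted p = 0.0207). DESeq2 on all 9 tumors called 8 of the 9 lower after i.v. TLZ, after NanoTLZ and after both. In that order it called 1.12%, 0.712% and 1.53% of its tested genes in either direction. The share of these cell types in the receptor values was not tested either.

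**Figure D4:**
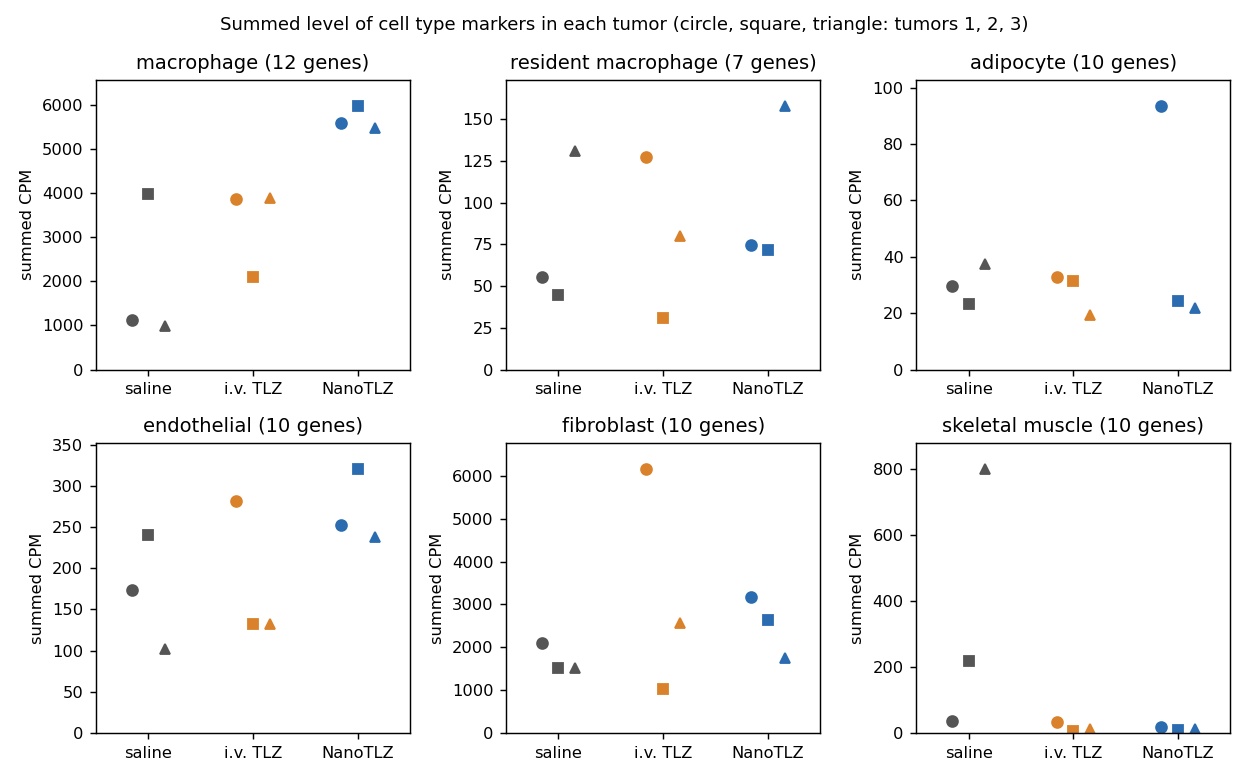
Summed CPM of 6 lists of cell type markers in each of the 9 tumors (circle, square and triangle for tumors 1, 2 and 3 of a group). The macrophage sum was highest in the 3 NanoTLZ tumors (5468 to 5975 CPM, of which *Lyz2* gave 2260 to 3642 CPM). The adipocyte sum was highest in NanoTLZ tumor 1 (93.5 CPM), the fibroblast sum in i.v. TLZ tumor 1 (6155 CPM) and the skeletal muscle sum in saline tumor 3 (798 CPM).

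Other scavenger receptors were read from a list of 21 genes, of which 19 were tested. This list and those below were likewise chosen with earlier results of these data known. After i.v. TLZ 17 of the 19 had higher and 2 lower counts than saline, with a median log2 fold change of 0.57 against -0.03 over all tested genes. After NanoTLZ the split was 16 higher and 3 lower, with a median of 0.84 against -0.09. None was called by edgeR in any comparison, and at an unadjusted p under 0.05 there were 5 higher and 0 lower after i.v. TLZ and 6 higher and 1 lower after NanoTLZ. Over all 15821 tested genes, 777 were higher and 866 lower at that p for i.v. TLZ, and 555 were higher and 868 lower for NanoTLZ. *Cd68*, a lysosomal scavenger receptor of macrophages, had means of 35.1 ± 13.4 CPM in saline, 48.3 ± 16.5 CPM after i.v. TLZ and 63.0 ± 8.64 CPM after NanoTLZ (SD, n = 3). *Mrc1*, the mannose receptor, was at 23.2 ± 5.14, 29.3 ± 11.3 and 39.1 ± 4.86 CPM in the same order. In both of these genes all NanoTLZ tumors were above all saline tumors, with log2 fold changes of 0.84 ± 0.36 and 0.75 ± 0.34 (SE). Of the 19 tested genes of the list, 8 were higher and 1 lower without overlap in this comparison. Over all tested genes 7.82% were higher and 8.13% lower in this way. *Cxcl16*, which is a scavenger receptor for oxidized LDL in its membrane form, differed from saline by 0.85 ± 0.37 (i.v. TLZ) and 0.77 ± 0.37 (NanoTLZ) on the log2 scale. *Scarb2*, a lysosomal membrane protein, had means of 163 ± 54.0 CPM in saline and 138 ± 18.7 CPM after NanoTLZ (log2 fold change -0.24 ± 0.34). *Scara5*, a ferritin receptor, ranged from 11.8 to 240 CPM among single tumors, and the lectin-like receptor for oxidized LDL *Olr1* was under 3 CPM in every tumor. *Stab2*, the stabilin of liver sinusoids, was not tested, with 1 to 13 counts per tumor.

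By DESeq2 on all 9 tumors, *Lgals3* was the 1 gene of this scavenger list that was called. Against saline it was called for i.v. TLZ (log2 fold change 1.83, DESeq2 adjusted p = 0.0234) and for both treatments (1.47, DESeq2 adjusted p = 0.0383). DESeq2 called 1.12% and 1.53% of its tested genes in these comparisons. The galectin-3 protein of *Lgals3* binds glycans and is a receptor for glycated proteins. The gene was named because of this call, after its values were seen. The saline tumors had 383, 330 and 153 CPM, the i.v. TLZ tumors 1083, 1437 and 565 CPM, and the NanoTLZ tumors 461, 701 and 692 CPM, so the treated tumors were all above saline. This held for 3 of the 19 tested genes of the list, and for 2.81% of all tested genes. EdgeR gave it an adjusted p of 0.417 for i.v. TLZ against saline. With DESeq2 on only the groups compared, the called gene of the list was *Scara3* instead, likewise named after its values were seen, lower after NanoTLZ (log2 fold change -1.64, adjusted p = 0.0228), where 1.05% of tested genes were called.

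The LDL receptor family beyond *Lrp1* and *Vldlr* did not lean to 1 side. Of 13 tested genes out of 15 listed, 7 had higher and 6 lower counts after i.v. TLZ (median log2 fold change 0.17), and 6 had higher and 7 lower counts after NanoTLZ (median -0.05). None was called by edgeR, by DESeq2 or by limma-voom, and at an unadjusted edgeR p under 0.05 2 genes were lower and 0 higher for i.v. TLZ (10.4% of all tested genes in either direction), and 1 was lower and 0 higher for NanoTLZ (8.99%). The Wnt co-receptor *Lrp6* was at 252 ± 65.7 CPM in saline, 135 ± 47.8 CPM after i.v. TLZ and 146 ± 13.8 CPM after NanoTLZ (SD, n = 3), with log2 fold changes of -0.90 ± 0.32 (SE) for i.v. TLZ and -0.78 ± 0.32 for NanoTLZ against saline. Its relative *Lrp5* was at 344, 323 and 332 CPM in mean, in the same order. The sorting receptor *Sorl1* had a mean of 161 ± 89.3 CPM in saline, 79.7 ± 13.8 CPM after i.v. TLZ and 89.1 ± 33.8 CPM after NanoTLZ. *Lrp8*, the other reelin receptor, had log2 fold changes of 0.24 and 0.12 with standard errors of 0.43. *Lrp2* (megalin) was not tested, with 0 to 17 counts per tumor.

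Ligands, chaperones and adaptors of these receptors came from a list of 20 genes, of which 15 were tested. After i.v. TLZ 14 had higher and 1 lower counts than saline, and after NanoTLZ 11 had higher and 4 lower counts, with a median log2 fold change of 0.64 in each comparison. None was called by edgeR, by DESeq2 or by limma-voom, and at an unadjusted edgeR p under 0.05 there were 3 higher and 0 lower after i.v. TLZ (10.4% of all tested genes in either direction) and 2 higher and 0 lower after NanoTLZ (8.99%). *Apoe*, the apolipoprotein bound by *Lrp1* and *Vldlr* and made by macrophages, had 638, 2287 and 665 CPM in saline, 2709, 963 and 3341 CPM after i.v. TLZ, and 2586, 3020 and 3739 CPM after NanoTLZ. Its low tumors were again saline tumors 1 and 3 and i.v. TLZ tumor 2, and the NanoTLZ tumors were all above saline (log2 fold change 1.38 ± 0.61, edgeR adjusted p = 0.553). Of the 15 tested genes of this list, 3 were higher and 0 lower without overlap there (7.82% and 8.13% of all tested genes). *Lrpap1*, the chaperone that keeps LDL receptor family members free of ligand in the secretory pathway, was at 40.8 ± 14.0, 56.1 ± 14.996 and 57.6 ± 3.18 CPM in saline, i.v. TLZ and NanoTLZ. *Lpl*, which hydrolyzes triglycerides on lipoproteins, was highest in NanoTLZ tumor 1 (80.1 CPM), the tumor with the highest sum of adipocyte markers. Its endothelial anchor *Gpihbp1* had log2 fold changes of 0.54 ± 0.51 and 0.23 ± 0.51. The endocytic adaptor *Dab2* differed from saline by -0.09 ± 0.35 for i.v. TLZ and by 0.25 ± 0.35 for NanoTLZ on the log2 scale.

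Regulators of lipoprotein uptake and the cholesterol exporters made up a list of 22 genes, with 21 tested. After i.v. TLZ 8 had higher and 13 lower counts than saline (median log2 fold change -0.17), and after NanoTLZ 11 had higher and 10 lower counts (median 0.01). None was called by edgeR, by DESeq2 or by limma-voom, and at an unadjusted edgeR p under 0.05 there were 1 higher and 0 lower after i.v. TLZ (10.4% of all tested genes in either direction) and 3 higher and 0 lower after NanoTLZ (8.99%). *Nr1h3* encodes the sterol sensor LXR alpha, which induces *Mylip*, *Abca1* and *Abcg1*. It stood at 7.10, 8.63 and 3.30 CPM in saline, at 7.998, 4.81 and 12.9 CPM after i.v. TLZ, and at 14.5, 13.4 and 14.1 CPM after NanoTLZ. Each NanoTLZ tumor was above all other tumors, with a log2 fold change of 1.14 ± 0.48 against saline (edgeR adjusted p = 0.552) and of 0.71 ± 0.47 against i.v. TLZ (edgeR adjusted p = 0.9999). Of the 21, 4 were higher and 1 lower without overlap for NanoTLZ against saline (7.82% and 8.13% of all tested genes). Against i.v. TLZ 1 was higher and 0 lower without overlap (3.2% and 4.41% of all tested genes). *Mylip*, a ubiquitin ligase that lowers lipoprotein uptake, was at 40.5 ± 25.8 CPM in saline and 73.1 ± 7.06 CPM after NanoTLZ. These groups overlapped, with 68.4 CPM in saline tumor 1 and 68.2 CPM in NanoTLZ tumor 1. The exporter *Abcg1* had all i.v. TLZ tumors above saline (log2 fold change 1.07 ± 0.46), where 5.99% of tested genes were higher in this way. *Abca1* overlapped between groups in all comparisons. *Srebf2*, which drives cholesterol synthesis, had log2 fold changes of -0.44 ± 0.33 and -0.50 ± 0.33 against saline. *Pparg* was at or under 1.64 CPM in every tumor.

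For each receptor gene the tested genes with the most similar pattern were read from the Pearson correlation of log2 CPM over the 9 tumors, as a description without a test. The points share the libraries and the differences between groups, and the best of 15821 genes is high by selection. *Msr1* was most like *Cd40* (r = 0.975), a receptor of antigen-presenting cells, *Cabp4* (0.973) and *Pira2* (0.971), an immune receptor of myeloid cells. *Lrp1* was most like *Ushbp1* (0.956), *Gja4* (0.953), a connexin of arterial endothelium, and *Phex* (0.949). *Stab1* was close to *Apba1* (0.968) and *Parvb* (0.967). *Colec12* had *Tmprss11d* (0.979), *2010300F17Rik* (0.976) and *Ip6k3* (0.960). *Scarb1* was most like *Ppp4r2* (0.984), *Shq1* (0.973) and *Cdkn1b* (0.967), an inhibitor of the cell cycle. *Cd163* was most like *Mkrn2* (0.940), *Heyl* (0.940) and *Bbip1* (0.934). *Vldlr* had *Pcsk6* (0.980), *Lrig1* (0.921) and *Tef* (0.921), *Cd36* had *Ddx52* (0.911), *Armcx4* (0.903) and *Cep295* (0.896), and *Marco* was close to *Gm16794* (0.894) and *1110032A03Rik* (0.888). Some of the similar genes were low. *Cabp4*, *Pira2*, *Phex*, *Tmprss11d* and *Gm16794* were at or under 2.02 CPM in every tumor, and *Ip6k3* and *2010300F17Rik* reached 3.34 and 4.51 CPM. Their correlations therefore rest on low counts. No receptor gene was among the 3 most similar genes of another.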

How the data were processed

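RNA of 9 tumors was sequenced, and the authors deposited raw counts of reads per gene, without normalization. The submitters' processing notes name TopHat2, DESeq2 and mm10. The counting program, the annotation and the strand setting are not given in the sources used here. Tumors were assigned to groups by the treatment in their labels, and all 9 columns were used. Of 35275 Ensembl identifiers, 34490 matched a symbol in GENCODE M21 (GRCm38) and 785 did not. Exon lengths are those of merged exons. No 2 columns were identical.

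Genes were kept by filterByExpr (minimum count 10, minimum total count 15), scaled by TMM and tested in edgeR 4.0.16 under R 4.3.3 with glmQLFit and glmQLFTest, 1 coefficient per group. The biological coefficient of variation was 49.8%. The standard error is the log2 fold change divided by the square root of F. Alternatives were DESeq2 1.42.0, limma-voom (limma 3.58.1), RLE and upper quartile scaling, no filter, at least 10 counts in every tumor, robust dispersions, edgeR on 2 groups, CPM on total counts, and each tumor left out. The count of genes without overlap when a tumor is left out was chosen after seeing the data. Named genes were the 9 receptors, genes listed by role, list genes that edgeR called, cell type markers, and the 3 genes most similar to each receptor by log2 CPM with a prior count of 2. Some genes that this rule names are not reported here. The receptors and lists were chosen with earlier results of these data known. The edgeR fit was tested on simulated data in which 200 of 15821 genes changed 8-fold in NanoTLZ only. It called 119 of the 200 against saline and 118 against i.v. TLZ, all in the right direction. It also called 2 and 3 unchanged genes. Many changes of that size were thus missed, so a gene not called here may still differ. Python 3.11.15, pandas 2.3.3, numpy 2.4.6 and matplotlib 3.10.9 were used for summaries and figures.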

Additional observations from a re-analysis of the deposited data

How the results depend on the processing

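No paired analysis was possible because the labels give no number shared between groups. Of 36 log2 fold changes (9 genes in 4 comparisons), 24 kept their sign in every alternative run and 12 did not. Those of *Lrp1*, *Stab1*, *Colec12*, *Scarb1* and *Cd163* against saline kept theirs. The call that changed was that of *Lrp1* for both treatments against saline, where DESeq2 on all 9 tumors called 1 receptor gene and edgeR 0. The adjusted p of *Lrp1* there ranged from 0.0196 to 0.358 over the other tools, scalings and filters, and from 0.134 to 0.487 with a tumor left out. *Vldlr* turned sign for i.v. TLZ against saline under limma-voom (-0.017), and for both treatments against saline with upper quartile scaling (0.075) and with at least 10 counts in every tumor (0.0081).

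With each tumor left out in turn, log2 fold changes that changed sign against saline ranged, for i.v. TLZ, from -0.23 to 0.91 in *Msr1* and from -0.80 to 0.69 in *Vldlr*. For NanoTLZ they ranged from -0.95 to 1.13 in *Marco* (without saline tumor 3 or NanoTLZ tumor 3) and from -0.19 to 1.33 in *Cd36* (without NanoTLZ tumor 1). For both treatments they ranged from -0.068 to 1.06 in *Msr1* (without saline tumor 3), from -0.30 to 0.55 in *Cd36* and from -0.56 to 0.23 in *Vldlr*. Between NanoTLZ and i.v. TLZ they ranged from -0.29 to 0.075 in *Scarb1*, from -1.01 to 0.48 in *Vldlr*, from -0.23 to 0.21 in *Lrp1*, from -0.67 to 0.021 in *Cd163* and from -0.077 to 0.63 in *Colec12*. The count of receptor genes without overlap ranged from 2 to 5 for i.v. TLZ against saline (5 without i.v. TLZ tumor 2), from 4 to 6 for NanoTLZ against saline (6 without saline tumor 2), from 1 to 4 between the formulations (4 without i.v. TLZ tumor 1, 2 without i.v. TLZ tumor 2, NanoTLZ tumor 2 or NanoTLZ tumor 3), and from 2 to 4 for both treatments against saline (4 without i.v. TLZ tumor 2). With fewer tumors more genes lie apart: over all tested genes the shares ranged from 17.8% to 26.5%, 21.9% to 33.8%, 13.4% to 23.2% and 6.18% to 18.9% in these comparisons, against 11.2%, 15.9%, 7.61% and 5.47% with all tumors. The cause of these changes was not tested beyond the tumor left out. *Marco* could not be tested with at least 10 counts in every tumor, nor by edgeR on saline and NanoTLZ alone. On total counts the mean CPM of *Msr1* in NanoTLZ was 39.3 and that of *Lrp1* in saline was 142. With 3 tumors a group and a biological coefficient of variation of 49.8%, the half-widths of the 95% intervals limit what can be seen, and counts of 30 or fewer limit *Marco*.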
